A study of Mus musculus with 36 samples.

Results

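MIR29B was set against a scrambled control at week 2 of intermittent dosing in Townes sickle cell mice, using blood RNA sequencing. The comparison holds 12 of the 36 libraries of the series, chosen by their labels alone: the 6 MIR29B libraries of week 2 and the 6 scrambled libraries of week 2. Either arm was dosed at 2 mg/kg in 3 libraries and at 3 mg/kg in the remaining 3. Dose entered the fit as a covariate. Townes mice are a humanized mouse model in which human globin genes, including the sickle allele, stand in place of the adult mouse globin genes. All 12 libraries share this background, a mini-osmotic pump as the route of dosing, peripheral blood as the source, TRIzol total RNA and depletion of globin mRNA with the GLOBINclear kit. Whether each library of a group is a mouse of its own is not in the labels, and the p-values therefore measure only the spread between these samples, which may be technical. The series was set up to ask how intermittent MIR29B, an oligonucleotide carrying cholesterol, acts on fetal hemoglobin and on gene expression, and its title names DNMT3A as the target.

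MicroRNAs are short RNAs that guide the silencing complex to complementary sites, mostly in 3′ UTRs, where they shorten the life of the mRNA or slow its translation. The miR-29 family is known for targeting the DNA methyltransferases DNMT3A and DNMT3B, the TET demethylases, the anti-apoptotic gene MCL1 and extracellular matrix genes. The fetal gamma-globin genes are silenced after birth by BCL11A, ZBTB7A and DNA methylation at their promoters, and raised gamma-globin limits the polymerization of sickle hemoglobin. The human globin transcripts were not analysed here.

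The exact sequences of the cholesterol-modified MIR29B oligonucleotide and of the scrambled control are not given in the sources used here. The natural mouse mature forms of the family, from RefSeq (GRCm38.p6), are shown because the shared seed defines the sites searched for; capitals mark the seed, bases 2 to 8.
miR-29a-3p (chr6:31062673-31062694, minus strand): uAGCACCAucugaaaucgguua
miR-29b-3p (Mir29b-1, chr6:31063025-31063047, minus strand; Mir29b-2, chr1:195037091-195037113, plus strand): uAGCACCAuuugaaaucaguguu
miR-29c-3p (chr1:195037600-195037621, plus strand): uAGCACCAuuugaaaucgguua
All 3 members carry the same seed, AGCACCA, and differ only downstream of it.

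The target sites below are examples, read from the 3′ UTRs of GENCODE M21 on GRCm38. The results for predicted targets as a class use all genes with a site. Each is written on the strand of its transcript, and capitals mark the match to the seed followed by A (the 8-mer TGGTGCTA). Dnmt3a, Mcl1 and Tet3 are named in the literature on miR-29, while Ybx3, Ppdpf, Lpl and Gng12 had the smallest p-values in either direction among genes with such a site.
Dnmt3a site 1 (chr12:3911390-3911412, plus strand): cccaggggaggtagcTGGTGCTA
Dnmt3a site 2 (chr12:3911459-3911481, plus strand): agcggggtcccaagcTGGTGCTA
Mcl1 (chr3:95661844-95661866, plus strand): ctagagtcttaaccaTGGTGCTA
Tet3 site 1 (chr6:83364336-83364358, minus strand): aaatagtctaataaaTGGTGCTA
Tet3 site 2 (chr6:83363777-83363799, minus strand): aaggccgcttttagtTGGTGCTA
Ybx3 (chr6:131365004-131365026, minus strand): gttcattttggatgcTGGTGCTA
Ppdpf (chr2:181188318-181188340, plus strand): ctgcccaagctgaagTGGTGCTA
Lpl (chr8:68906755-68906777, plus strand): tgcagtatagatttgTGGTGCTA
Gng12 (chr6:67020924-67020946, plus strand): tttctgccaacgtgtTGGTGCTA
The first Dnmt3a site starts at position 3658 of a 3′ UTR of 6696 bases and the second at position 3727, so the pair lie close together in the middle of that UTR.

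Total counts, in units of 1e6, ran from 14.57 to 31.72 with a median of 19.7 in the MIR29B libraries, and from 6.824 to 22.51 with a median of 18.3 in the scrambled libraries. Ribosomal RNA and entries with no gene name held 2.567% to 21.79% of counts in the MIR29B libraries and 2.431% to 4.729% in the scrambled libraries, and the 2 mg/kg MIR29B replicates 2 and 3 stood apart with 21.79% and 13.4%. The TMM scaling factor ran from 0.727 to 1.041 with a median of 0.851 in the MIR29B libraries. In the scrambled libraries it ran from 0.7904 to 2.058 with a median of 1.13. It lay above every MIR29B library in the 2 mg/kg scrambled replicate 1 (2.058) and the 3 mg/kg scrambled replicates 2 (1.424) and 3 (1.257). Counts on Y-linked genes were 0 in 2 MIR29B and 3 scrambled libraries, so both sexes were present on either side. The labels call the cells erythrocytes. Alas2, the first enzyme of erythroid heme synthesis, held 102045, 110853 and 125848 counts per 1e6 counts (CPM; lowest, median and highest of 6 libraries) with MIR29B and 56250, 78177 and 112928 CPM with scrambled. Markers of white cells and platelets were also present: the summed level of the neutrophil granule list was 706 to 1702 CPM with MIR29B and 851 to 3280 CPM with scrambled, and that of the platelet list 567 to 1114 CPM with MIR29B and 373 to 2307 CPM with scrambled.

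No gene passed an adjusted p of 0.05 in the comparison of MIR29B with scrambled at week 2. The genes with the smallest p-values on the higher side included Foxo3 and Sptb, which act in red cells, and the cell cycle gene Cdc25b, and those on the lower side included Stfa2l1, Wfdc17 and Anxa1, which are known from neutrophils and monocytes. Dnmt3a, the gene in the title of the study, differed by less than the spread between libraries. With edgeR's quasi-likelihood test over 10826 genes, 0 were higher (0% of genes tested) and 0 were lower (0%) after Benjamini-Hochberg adjustment, and the smallest adjusted p was 0.353, for Cit. At an unadjusted p under 0.05, 216 genes were higher (2.00%) and 298 were lower (2.75%), 514 in all, where 541 would be 5% of those tested. DESeq2, run on the same counts, gave an adjusted p to 3393 genes and called 11 higher (0.324%) and 7 lower (0.206%), while limma's voom called 0. The 11 higher genes were Atxn7l1, Cdc25b, Foxo3, Ilrun, Isyna1, Mavs, Mpp2, Psmf1, Rnf187, Sptb and Ube2o, and the 7 lower genes were Anxa1, Chil3, Cstdc4, Ifitm1, Sirpb1c, Stfa2l1 and Wfdc17. The typical gene was measured with a biological coefficient of variation of 0.58 and a median standard error of 0.46 on the log2 scale. All 6 MIR29B libraries lay above all 6 scrambled libraries for 29 genes (0.268%), and below them for 13 genes (0.12%). The unadjusted count rested in part on single libraries: it was 1023 without the 3 mg/kg scrambled replicate 1, 775 without the 2 mg/kg scrambled replicate 2 and 325 without the 2 mg/kg MIR29B replicate 2, with 0 genes past the adjusted threshold each time.

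Among the 10 genes with the smallest p-values on the higher side, 6 had MIR29B libraries that did not overlap the scrambled ones, beside 0.268% of all genes; the choice by small p favours such genes, and nothing is read from this count. None passed edgeR's adjusted threshold, so the values below are given as measured. Cit (chr5:115845224-116008953), the citron kinase that acts in cytokinesis, had 2.31, 8.04 and 14 CPM with MIR29B (lowest, median, highest), against 0.168, 1.2 and 2.1 CPM with scrambled. Every MIR29B library lay above every scrambled one, the closest pair being the 2 mg/kg MIR29B replicate 3 at 2.31 CPM and the 3 mg/kg scrambled replicate 3 at 2.1 CPM. Its log2 fold change was 2.68 ± 0.48 (SE, n = 6 against 6; adjusted p = 0.353). DESeq2 gave this gene no adjusted p, and edgeR without the filter on low counts called it (adjusted p = 0.00109).

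Foxo3 (chr10:42181845-42276695), a forkhead transcription factor of erythroid maturation, had 90.1, 97.4 and 134 CPM with MIR29B and 32.7, 48.3 and 64.9 CPM with scrambled. The arms did not overlap. The log2 fold change was 1.10 ± 0.29 (adjusted p = 0.846 in edgeR and 0.0122 in DESeq2). Cdc25b (chr2:131186436-131198511), a phosphatase that activates cyclin-dependent kinases for entry into mitosis, stood at 47.3, 54.4 and 70.3 CPM with MIR29B and 15, 28.2 and 35.3 CPM with scrambled, again without overlap. Its log2 fold change of 1.13 ± 0.29 had the same pair of adjusted p-values, 0.846 in edgeR and 0.0122 in DESeq2. Sptb (chr12:76580488-76710547), the beta-spectrin of the red cell skeleton, showed a wider spread, with 34.3, 85.8 and 201 CPM under MIR29B and 6.34, 30 and 63.4 CPM under scrambled. Its arms overlapped, and the log2 fold change was 1.84 ± 0.51 (adjusted p = 0.846 in edgeR, 0.0426 in DESeq2).

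Mavs, the mitochondrial adaptor of cytosolic RNA sensing, had 88.3, 121 and 161 CPM with MIR29B and 15.4, 50.5 and 76.3 CPM with scrambled (log2 fold change 1.36 ± 0.37). Ilrun, a regulator of inflammatory and interferon signalling, had 30.1, 38.2 and 45.6 CPM with MIR29B and 15, 20.1 and 22.9 CPM with scrambled (0.96 ± 0.27). Stard10, a phospholipid transfer protein, had 3.04, 4.16 and 6.09 CPM with MIR29B and 1.17, 1.55 and 2.75 CPM with scrambled (1.24 ± 0.35). None of these 3 had overlapping arms. Isyna1, the enzyme that makes inositol phosphate from glucose 6-phosphate, was at 15.8, 31.4 and 37.2 CPM with MIR29B and 3.62, 8.82 and 21.7 CPM with scrambled (1.5 ± 0.38). The scaffold gene Mpp2 was at 11.5, 21.4 and 23.9 CPM with MIR29B and 3.42, 10.1 and 13.1 CPM with scrambled (1.22 ± 0.33). The ubiquitin ligase gene Rnf187 was at 42.1, 64.4 and 98.3 CPM with MIR29B and 17.1, 33.1 and 42.7 CPM with scrambled (1.13 ± 0.31). The last 3 overlapped between arms, and all 6 genes of this group had an edgeR adjusted p of 0.846.

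**Figure D1:**
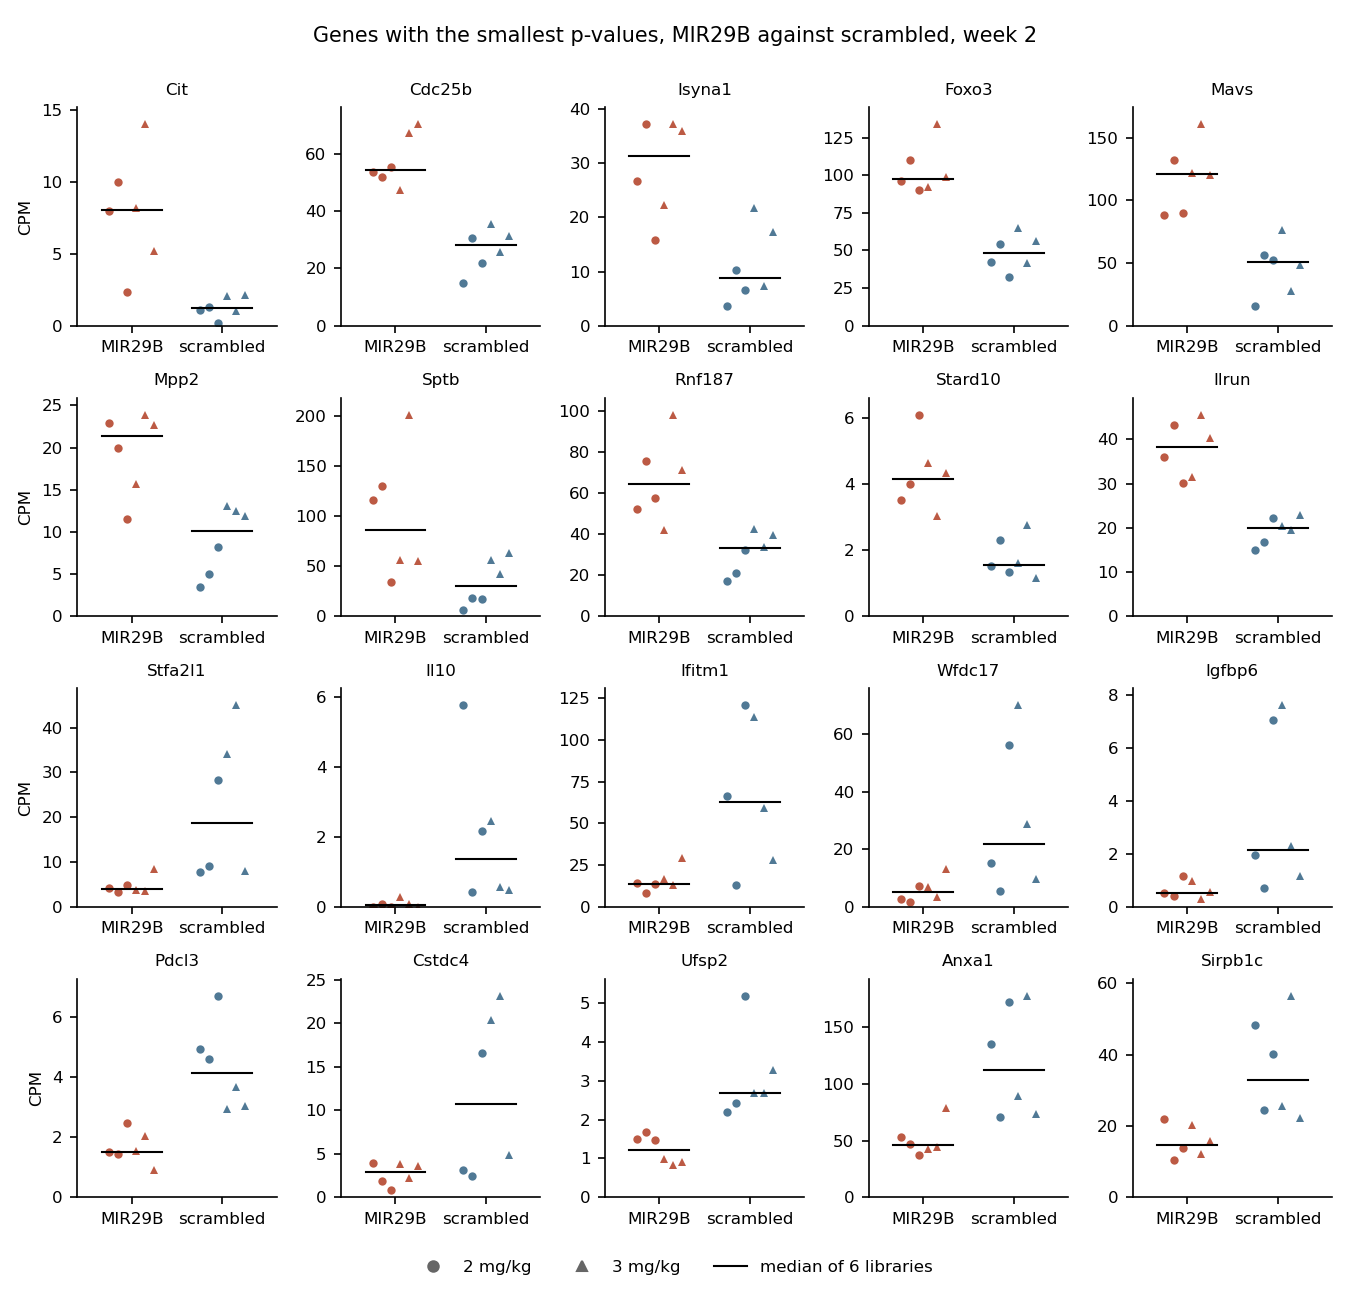
TMM-scaled CPM per library (each panel on its own linear axis from 0) for the genes with the smallest p-values in either direction, with MIR29B left of scrambled and 2 and 3 mg/kg as circles and triangles; bars are medians of 6 libraries. Cit sits between 2.31 and 14 CPM with MIR29B and between 0.168 and 2.1 CPM with scrambled, and Sirpb1c between 10.5 and 22 CPM with MIR29B and between 22.2 and 56.5 CPM with scrambled.

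The lower side held several genes known from myeloid cells. Stfa2l1 (chr16:36156811-36161948), a stefin-type inhibitor of cysteine proteases, had 3.19, 4 and 8.47 CPM with MIR29B, against 7.84, 18.8 and 45 CPM with scrambled. Only the highest MIR29B library reached into the scrambled range. The log2 fold change was -2.18 ± 0.45 (adjusted p = 0.792 in edgeR and 0.00402 in DESeq2). Cstdc4, a gene of the same stefin cluster, had 0.823, 2.91 and 3.94 CPM with MIR29B and 2.44, 10.7 and 23.2 CPM with scrambled (-2.03 ± 0.53). Members of this cluster are close copies of each other and the handling of reads that match several genes is not stated, so the split between them is uncertain.

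Il10 (chr1:131019845-131024970), the anti-inflammatory cytokine interleukin-10, was counted 8 times in all in the 6 MIR29B libraries, 3 of them at 0, and 324 times in the 6 scrambled libraries. In CPM this was 0, 0.0399 and 0.281 with MIR29B and 0.43, 1.37 and 5.78 with scrambled, without overlap. The fitted log2 fold change of -4.56 ± 0.98 (adjusted p = 0.792) rests on those few counts. Ifitm1, an interferon-induced membrane protein, had 8.54, 13.9 and 29.2 CPM with MIR29B and 13.2, 62.7 and 121 CPM with scrambled (-2.12 ± 0.48). Wfdc17, a secreted protein of myeloid cells, had 1.76, 5.07 and 13 CPM with MIR29B and 5.59, 21.9 and 70 CPM with scrambled (-2.48 ± 0.59). Both overlapped between arms, and their adjusted p-values were 0.846 for both in edgeR, and 0.00887 for Ifitm1 and 0.0111 for Wfdc17 in DESeq2.

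Anxa1, the phospholipid-binding annexin A1 that neutrophils carry in quantity, had 37.1, 45.9 and 79.1 CPM with MIR29B and 70.7, 113 and 178 CPM with scrambled (-1.25 ± 0.35). Sirpb1c, a signal-regulatory receptor of myeloid cells, had 10.5, 14.8 and 22 CPM with MIR29B and 22.2, 32.9 and 56.5 CPM with scrambled (-1.20 ± 0.33). Sirpb1c did not overlap between arms, while 1 MIR29B library of Anxa1 did. Igfbp6, an insulin-like growth factor binding protein, had 0.276, 0.521 and 1.15 CPM with MIR29B and 0.717, 2.14 and 7.62 CPM with scrambled (-2.45 ± 0.61). Pdcl3, a phosducin-like co-chaperone, had 0.901, 1.52 and 2.47 CPM with MIR29B and 2.95, 4.14 and 6.71 CPM with scrambled (-1.35 ± 0.34). Ufsp2, a protease of the UFM1 modifier, had 0.829, 1.23 and 1.68 CPM with MIR29B and 2.21, 2.69 and 5.2 CPM with scrambled (-1.36 ± 0.36). Pdcl3 and Ufsp2 did not overlap between arms and Igfbp6 did; the edgeR adjusted p was 0.846 for each of the 5. In whole blood RNA, fewer cells of a type and less RNA per cell cannot be told apart, and neutrophil and monocyte markers lay lower beside these genes: the neutrophil granule list summed to a median of 837 CPM with MIR29B and 2055 CPM with scrambled, and the monocyte list to 605 CPM with MIR29B and 852 CPM with scrambled. Anxa1 is itself a member of the neutrophil granule list. The part of those cells in the values of Stfa2l1, Wfdc17, Anxa1 and Sirpb1c was not tested.

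The arms did not overlap in 29 genes with MIR29B above and 13 with MIR29B below. A few more of them, all from the higher side, are named here after their values were seen. Fech, which inserts iron into protoporphyrin to complete heme, had 10739, 11962 and 14898 CPM with MIR29B and 4680, 7876 and 10017 CPM with scrambled (0.70 ± 0.32). Slc48a1, a heme transporter, had 1684, 1978 and 2208 CPM with MIR29B and 647, 1188 and 1548 CPM with scrambled (0.75 ± 0.31). Foxo4, a forkhead factor of the same family as Foxo3, had 145, 188 and 214 CPM with MIR29B and 35.1, 110 and 125 CPM with scrambled (0.90 ± 0.33). Hsp90ab1, a cytosolic chaperone, had 39653, 43858 and 47694 CPM with MIR29B and 6325, 28612 and 37035 CPM with scrambled (0.85 ± 0.45), where 2 scrambled libraries lay far below the other 4. These 4 genes did not pass the adjusted threshold, and for Hsp90ab1 the unadjusted p in edgeR was 0.0728.

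The DNA methylation genes were of interest because the study names DNMT3A as the target. Dnmt3a (chr12:3801559-3914443), which sets new DNA methylation marks, was scarce in this blood RNA, with 286 counts over the 6 MIR29B libraries and 312 over the 6 scrambled libraries. Its level was 0.561, 1.92 and 3.83 CPM with MIR29B and 0.43, 2.45 and 5.6 CPM with scrambled. Library by library, it was 3.51, 3.83 and 0.988 CPM at 2 mg/kg MIR29B and 0.561, 2.85 and 0.901 CPM at 3 mg/kg MIR29B, against 3.77, 0.43 and 3.02 CPM at 2 mg/kg scrambled and 0.737, 1.87 and 5.6 CPM at 3 mg/kg scrambled. The arms overlapped over nearly their whole range, and 3 of 6 MIR29B libraries lay above the scrambled median. The log2 fold change was -0.32 ± 0.61 with a 95% interval of -1.59 to 0.96 (adjusted p = 0.999). Changes of either sign thus lay inside the interval. The sign of this value was not stable: it was 0.14 without the 3 mg/kg scrambled replicate 3, 0.19 at 2 mg/kg alone and 0.11 with voom. Dnmt3b, the second enzyme of new methylation, was counted 46 times with MIR29B and 40 times with scrambled (0.09 ± 0.99), too few counts to show a difference of ordinary size.

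Dnmt1 (chr9:20907206-20959888), which copies methylation marks to new DNA strands, had 19.8, 39.5 and 73.7 CPM with MIR29B and 8.85, 14.4 and 29.2 CPM with scrambled. All 6 MIR29B libraries lay above the scrambled median, and the arms overlapped only through the 2 mg/kg MIR29B replicate 3 at 19.8 CPM and the 3 mg/kg MIR29B replicate 1 at 26.7 CPM. The log2 fold change was 1.28 ± 0.39 with an unadjusted p of 0.00471, which did not pass after adjustment (0.853 in edgeR and 0.111 in DESeq2). It was 1.22 at 2 mg/kg and 1.31 at 3 mg/kg. Tet3, an enzyme that oxidizes 5-methylcytosine, had 8.07, 11.6 and 15.6 CPM with MIR29B and 5.74, 9.73 and 15.3 CPM with scrambled (0.18 ± 0.31, and -0.31 with library totals alone as the scale). Tet2, of the same family, had 0, 2.01 and 2.95 CPM with MIR29B and 0.335, 1.53 and 7.14 CPM with scrambled (-0.32 ± 0.80, and 0.36 without the 2 mg/kg scrambled replicate 1). Tet1 was too low to test, with 18 counts with MIR29B and 20 with scrambled. Of 18 DNA methylation genes tested, out of 20 listed, 0 passed, 10 were above 0 and 8 below, and the median log2 fold change was 0.03 (-0.56 with library totals alone, beside -0.58 over all genes on that scale).

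**Figure D2:**
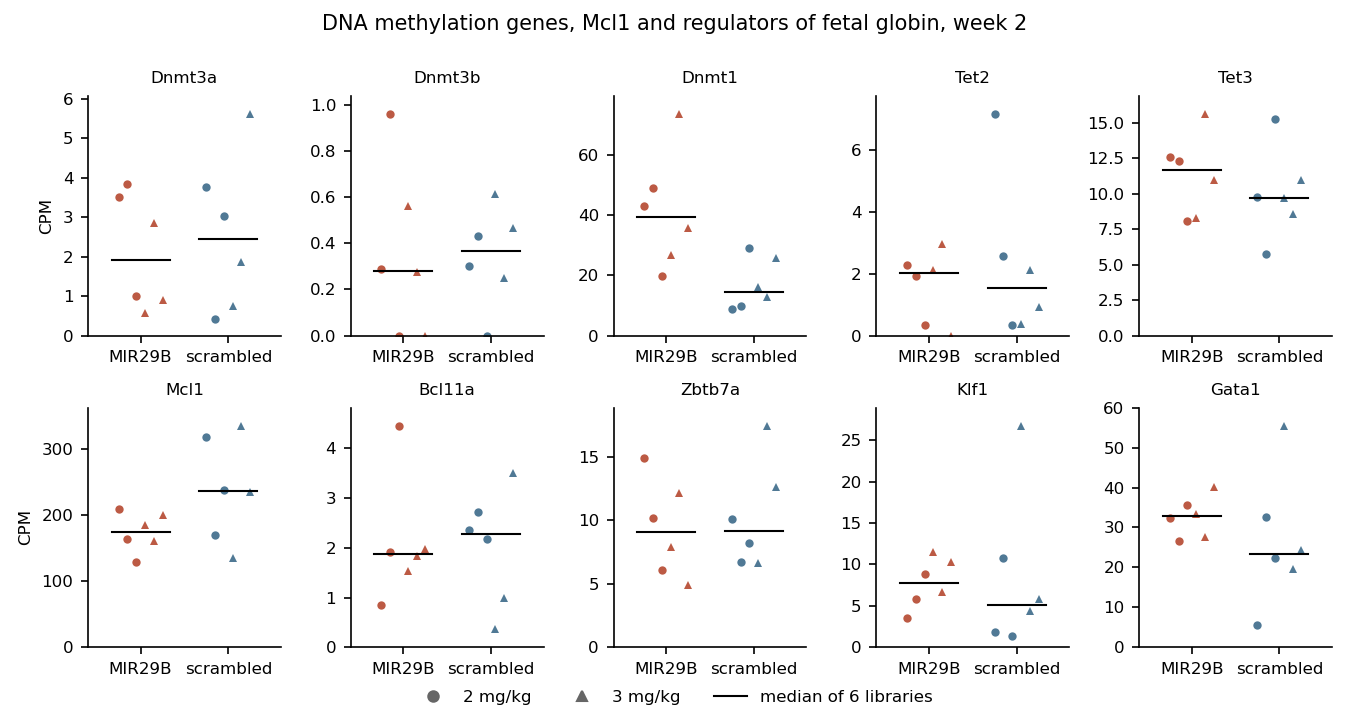
TMM-scaled CPM per library for DNA methylation genes, Mcl1 and regulators of fetal globin at week 2, with MIR29B left of scrambled, doses as circles (2 mg/kg) and triangles (3 mg/kg) and bars at the median of 6 libraries. Dnmt3a spans 0.561 to 3.83 CPM with MIR29B and 0.43 to 5.6 CPM with scrambled, while all 6 MIR29B libraries of Dnmt1 lie above its scrambled median of 14.4 CPM.

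Regulators that keep fetal globin silent did not differ beyond the spread between libraries. Bcl11a, the main repressor of gamma-globin, had 0.859, 1.88 and 4.45 CPM with MIR29B and 0.369, 2.27 and 3.5 CPM with scrambled (0.08 ± 0.50). Zbtb7a, the second direct repressor, had 4.86, 9.04 and 14.9 CPM with MIR29B and 6.63, 9.14 and 17.4 CPM with scrambled (-0.12 ± 0.36). Klf1, an erythroid factor that activates Bcl11a, had 3.58, 7.76 and 11.5 CPM with MIR29B and 1.34, 5.13 and 26.7 CPM with scrambled (0.00 ± 0.42). Each of these overlapped throughout, the adjusted p was 0.999 for Bcl11a and Zbtb7a and 1 for Klf1, and the sign of each depended on single libraries or settings. Myb, a factor of erythroid progenitors that holds fetal globin low, stood near its detection limit at 0, 0.435 and 0.823 CPM with MIR29B and 0, 0.26 and 0.574 CPM with scrambled (0.54 ± 1.07). Gata1, the lead erythroid transcription factor, had 26.7, 32.9 and 40.2 CPM with MIR29B and 5.58, 23.3 and 55.4 CPM with scrambled (0.34 ± 0.39), the MIR29B libraries lying within the scrambled range. Over the 37 fetal globin regulators tested, 18 were above 0 and 19 below with a median of -0.04, and 0 passed. The only members with an unadjusted p under 0.05 were Gatad2b, a NuRD subunit, at 1.10 ± 0.46, and Eed, a Polycomb subunit, at -0.66 ± 0.28. Such genes made up 2.00% of all genes on the higher side and 2.75% on the lower side, so 1 of 37 in either direction was near the background.

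Genes that the literature names as miR-29 targets and genes that carry a miR-29 site did not shift as a class. Of 50 literature targets tested, 23 were above 0 and 27 below with a median log2 fold change of -0.06, beside -0.07 over all 10826 genes, and 0 passed. The median of these 50 lay between -0.24 and 0.09 when single libraries were left out. Mcl1 (chr3:95656944-95663179), a survival gene of the BCL2 family and a miR-29 target, had 129, 174 and 209 CPM with MIR29B and 134, 236 and 334 CPM with scrambled. All 6 MIR29B libraries lay below the scrambled median, but 2 scrambled libraries lay among them. The log2 fold change was -0.45 ± 0.32 with a 95% interval of -1.12 to 0.22 (adjusted p = 0.999).

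The 3′ UTRs of 15339 genes were searched on the transcript strand for the 8-mer TGGTGCTA and, failing that, for the 7-mers TGGTGCT and GGTGCTA, which are the parts of the 8-mer. The 8-mer was found in 437 genes (2.85% of those searched), a 7-mer only in 2052 genes (13.4%) and neither in 12850 genes (83.8%). Of the genes with an 8-mer, 284 were tested, with 133 above 0, 151 below and a median of -0.03. Of the genes with a 7-mer only, 1496 were tested, with 700 above, 796 below and a median of -0.04. Of the genes with neither, 8585 were tested, with 3765 above, 4820 below and a median of -0.07. A seed match is a description of the letters in these UTRs, and no statement on binding follows from it.

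Of the genes with an 8-mer site, those with the smallest p-values lay in both directions. Ybx3, a Y-box RNA-binding protein, had 196, 216 and 346 CPM with MIR29B and 55.6, 117 and 164 CPM with scrambled, without overlap (1.03 ± 0.33, adjusted p = 0.861). Ppdpf had 17.5, 28.5 and 46.6 CPM with MIR29B and 9.49, 13.6 and 28 CPM with scrambled (1.01 ± 0.36). Both were higher with MIR29B. Lpl, the lipoprotein lipase gene, had 0.798, 1.22 and 2.24 CPM with MIR29B and 0.737, 4.59 and 9.56 CPM with scrambled (-1.91 ± 0.54). Gng12, a G protein gamma subunit, had 1.44, 2.9 and 4.94 CPM with MIR29B and 4.2, 5.72 and 7.21 CPM with scrambled (-0.97 ± 0.33). These were lower, with adjusted p-values of 0.846 for Lpl and 0.951 for Gng12 and Ppdpf. Kmt5a, the histone H4 lysine methyltransferase, also carries an 8-mer site and had 20.8, 41.9 and 52.6 CPM with MIR29B and 14.5, 21.9 and 40.7 CPM with scrambled (0.78 ± 0.37). Of the 20 genes of the small RNA silencing machinery, Ago2, the slicing Argonaute, had 7.25, 20.2 and 33.8 CPM with MIR29B and 6.89, 8.43 and 13.1 CPM with scrambled (1.11 ± 0.35, adjusted p = 0.862), and the median of the list was -0.02.

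**Figure D3:**
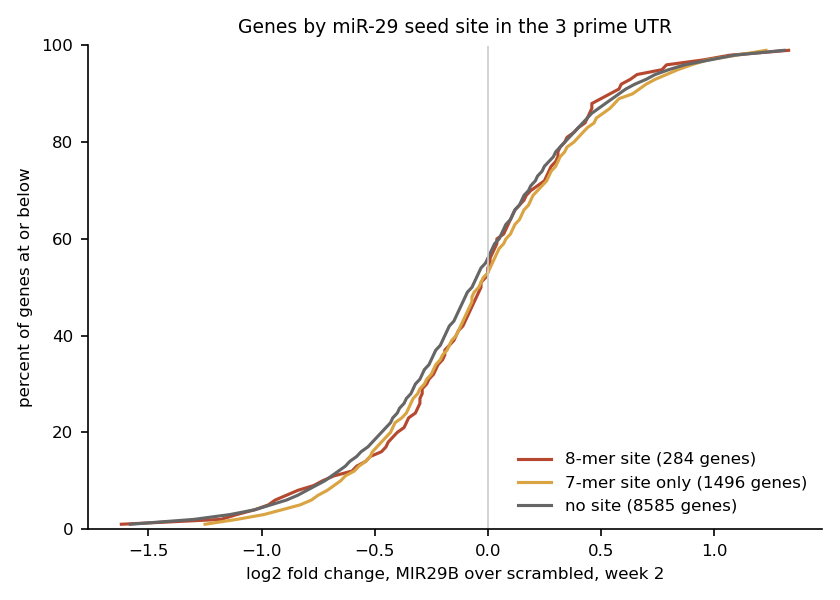
Cumulative share of genes tested against their log2 fold change, MIR29B over scrambled, by miR-29 seed match in the 3′ UTR. The curves of the 284 genes with an 8-mer, the 1496 genes with a 7-mer only and the 8585 genes with neither run close to each other, with medians of -0.03, -0.04 and -0.07.

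Gene lists are described by their counts and medians, since none of their members passed the adjusted threshold in edgeR. The median over all genes was -0.07 with TMM scaling and -0.58 with library totals alone. Several lists below are therefore also given relative to the median of all genes under both scales. Any other list median with library totals alone is to be read beside that -0.58. Of 30 genes of the red cell membrane and skeleton tested, 24 were above 0 and 6 below, the median log2 fold change was 0.48, and it lay 0.54 above all genes (0.75 with library totals alone). Their summed level was 22588, 32932 and 45833 CPM with MIR29B and 9166, 23358 and 27586 CPM with scrambled. Ank1, the ankyrin that ties spectrin to the membrane, had 147, 242 and 408 CPM with MIR29B and 29.1, 132 and 219 CPM with scrambled (1.08 ± 0.41). The 5 members Sptb, Ank1, Add1, Dmtn and Kel had an unadjusted p under 0.05 on the higher side, and 0 members on the lower side, beside 2.00% and 2.75% of all genes. DESeq2 called 1 of them, Sptb. At 3 mg/kg alone the median of the list was 0.23. Leaving out single libraries put the median between 0.37 and 0.69.

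Genes of terminal red cell maturation numbered 24 above 0 and 3 below of 27 tested, with a median of 0.34 that became -0.06 with library totals alone, or 0.41 and 0.52 relative to all genes; it was 0.55 without the 2 mg/kg scrambled replicate 2. Ube2o, an enzyme that tags proteins for removal as reticulocytes mature, had 7698, 11184 and 16546 CPM with MIR29B and 1818, 5244 and 8571 CPM with scrambled (1.22 ± 0.38, adjusted p = 0.855 in edgeR and 0.0499 in DESeq2). Trim10, a ubiquitin ligase gene of erythroid cells, had 1342, 2776 and 3734 CPM with MIR29B and 438, 990 and 2033 CPM with scrambled (1.21 ± 0.42). Both overlapped between arms. Erythroid transcription factors had 16 above 0 and 4 below of 20, with a median of 0.27 (-0.02 with library totals alone), or 0.34 and 0.56 relative to all genes. It was 0.17 without the 2 mg/kg scrambled replicate 1 and 0.48 without the 2 mg/kg scrambled replicate 2. Heme synthesis genes had 9 above 0 and 7 below of 16, with a median of 0.17 (-0.08 with library totals alone) that was 0.01 without the 2 mg/kg scrambled replicate 1, 0.59 without the 3 mg/kg scrambled replicate 1 and -0.10 at 3 mg/kg alone. The heme synthesis median lay 0.24 above all genes with TMM scaling and 0.50 above with library totals alone. Zfpm1, the GATA1 cofactor FOG1, had 34.4, 41.9 and 64.4 CPM with MIR29B and 1.86, 20.6 and 47.4 CPM with scrambled (1.45 ± 0.53, adjusted p = 0.951). The heat shock chaperones had 14 above 0 and 2 below of 16 with a median of 0.75, which lay 0.82 above all genes and 1.03 above with library totals alone.

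Counts on mouse globin genes need care, because the adult ones are replaced in these mice and globin mRNA was depleted, and the source of the reads was not tested. Of 12 listed, 9 passed the filter on low counts and all 9 were above 0, with a median of 0.53 that was 0.30 without the 2 mg/kg MIR29B replicate 3. Their summed level was 8937, 12332 and 24257 CPM with MIR29B and 2540, 9712 and 23577 CPM with scrambled, arms that overlapped widely, and 0 members had an unadjusted p under 0.05. Most of it lay on Hba-x, the embryonic zeta-globin gene, with 7519, 10483 and 21115 CPM with MIR29B and 1469, 7392 and 21153 CPM with scrambled (0.53 ± 0.54). The embryonic beta-like genes Hbb-y and Hbb-bh1 were at 1.84 to 5.89 and 1.15 to 3.09 CPM with MIR29B, against 0.838 to 8.84 and 0.312 to 6.76 CPM with scrambled. Erfe, the erythroid hormone that lowers hepcidin, had 0.165, 1.72 and 2.5 CPM with MIR29B and 0, 0.306 and 12.7 CPM with scrambled (1.0 ± 1.21).

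Most neutrophil and monocyte genes had log2 fold changes below 0. Of 17 neutrophil granule genes tested, out of 20 listed, 0 were above 0 and 17 below, with a median log2 fold change of -1.0, which lay 0.93 below all genes and 1.01 below with library totals alone. Their summed level was 706, 837 and 1702 CPM with MIR29B and 851, 2055 and 3280 CPM with scrambled. The arms overlapped, and leaving out single libraries put the median between -1.17 and -0.76. In 9 of the 17 the unadjusted p was under 0.05 on the lower side, beside 2.75% of all genes. After adjustment 0 passed in edgeR and 2, Chil3 and Anxa1, in DESeq2 (adjusted p = 0.0426 for each). S100a8, a subunit of calprotectin, had 145, 196 and 484 CPM with MIR29B and 234, 511 and 862 CPM with scrambled (-1.18 ± 0.42). Lcn2, a siderophore-binding protein of neutrophil granules, had 16.9, 24.2 and 44.9 CPM with MIR29B and 17.4, 65.5 and 117 CPM with scrambled (-1.35 ± 0.43). Chil3, a chitinase-like protein of neutrophils and macrophages, had 12.9, 21.2 and 26.7 CPM with MIR29B and 16.9, 52.4 and 495 CPM with scrambled (-2.17 ± 0.64, and between -2.50 and -1.15 when single libraries were left out). Its 495 CPM came from the 3 mg/kg scrambled replicate 2, without which the value was -1.15, and without the filter on low counts edgeR called it (adjusted p = 0.0288). Each of these 3 genes overlapped between arms, with the highest level always in a scrambled library. Elane, Mpo and Ctsg, which are genes of early granules, were the members of the list too low to test.

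Neutrophil surface and activation genes had 1 above 0 and 19 below of 20, with a median of -0.60 that was -0.35 without the 2 mg/kg scrambled replicate 1 and -0.24 without the libraries over 5% ribosomal RNA. Retnlg, a resistin-like secreted protein, had 63.7, 85.5 and 160 CPM with MIR29B and 77.9, 217 and 419 CPM with scrambled (-1.37 ± 0.42). Csf3r, the receptor for granulocyte colony-stimulating factor, had 72.1, 138 and 175 CPM with MIR29B and 67.4, 188 and 259 CPM with scrambled (-0.34 ± 0.39). Its SE exceeded its fold change, unlike that of Retnlg. Monocyte and macrophage markers had 2 above 0 and 19 below of 21, with a median of -0.60 that was -0.38 without the 3 mg/kg scrambled replicate 2 and -0.25 at 2 mg/kg alone, and their summed level was 482, 605 and 882 CPM with MIR29B and 584, 852 and 2148 CPM with scrambled, which overlapped. Ccr2, the chemokine receptor of inflammatory monocytes, had 5.43, 8.72 and 12.7 CPM with MIR29B and 7.98, 17.4 and 51.5 CPM with scrambled (-1.51 ± 0.43). Lyz2, a lysozyme of monocytes and neutrophils, had 141, 262 and 397 CPM with MIR29B and 170, 409 and 1126 CPM with scrambled (-0.97 ± 0.46). Eosinophil and basophil markers had 0 above 0 and 8 below of 8 tested, with a median of -0.61, which was -0.18 without the 3 mg/kg scrambled replicate 2. That median was -0.06 at 2 mg/kg alone and -0.97 at 3 mg/kg alone, and 0 members had an unadjusted p under 0.05 in edgeR. These genes were scarce: all 8 summed to 3.77, 5.73 and 8.89 CPM with MIR29B and 7, 8.57 and 11 CPM with scrambled.

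With the doses pooled, lymphocyte and platelet markers did not share that direction. B cell markers had 15 above 0 and 3 below of 18, with a median of 0.43 (-0.00 with library totals alone), which lay 0.50 and 0.57 above all genes and was 0.15 without the 2 mg/kg MIR29B replicate 3. Cd79a, a chain of the B cell receptor, had 31.4, 55.4 and 251 CPM with MIR29B and 12.8, 71.3 and 123 CPM with scrambled (0.55 ± 0.57), so that its MIR29B median was below the scrambled one while the fitted value was above 0. T cell markers had 19 above 0 and 1 below of 20 with a median of 0.22 (-0.35 with library totals alone), natural killer cell markers 10 and 9 of 19 with a median of 0.01 (-0.44), and platelet markers 13 and 9 of 22 with a median of 0.08 (-0.37). With TMM scaling and with library totals alone, the T cell median lay 0.29 and 0.23 above all genes. The natural killer cell median lay 0.08 and 0.14 above, and the platelet median 0.15 and 0.21 above. The natural killer cell median was -0.68 at 2 mg/kg alone and 0.73 at 3 mg/kg alone, so its pooled value combines opposite signs. In none of these 4 lists did a member pass adjustment. Platelet genes varied most in the scrambled libraries: Pf4, platelet factor 4, had 40.6, 62.6 and 118 CPM with MIR29B and 23.1, 91 and 562 CPM with scrambled (-1.04 ± 0.62).

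**Figure D4:**
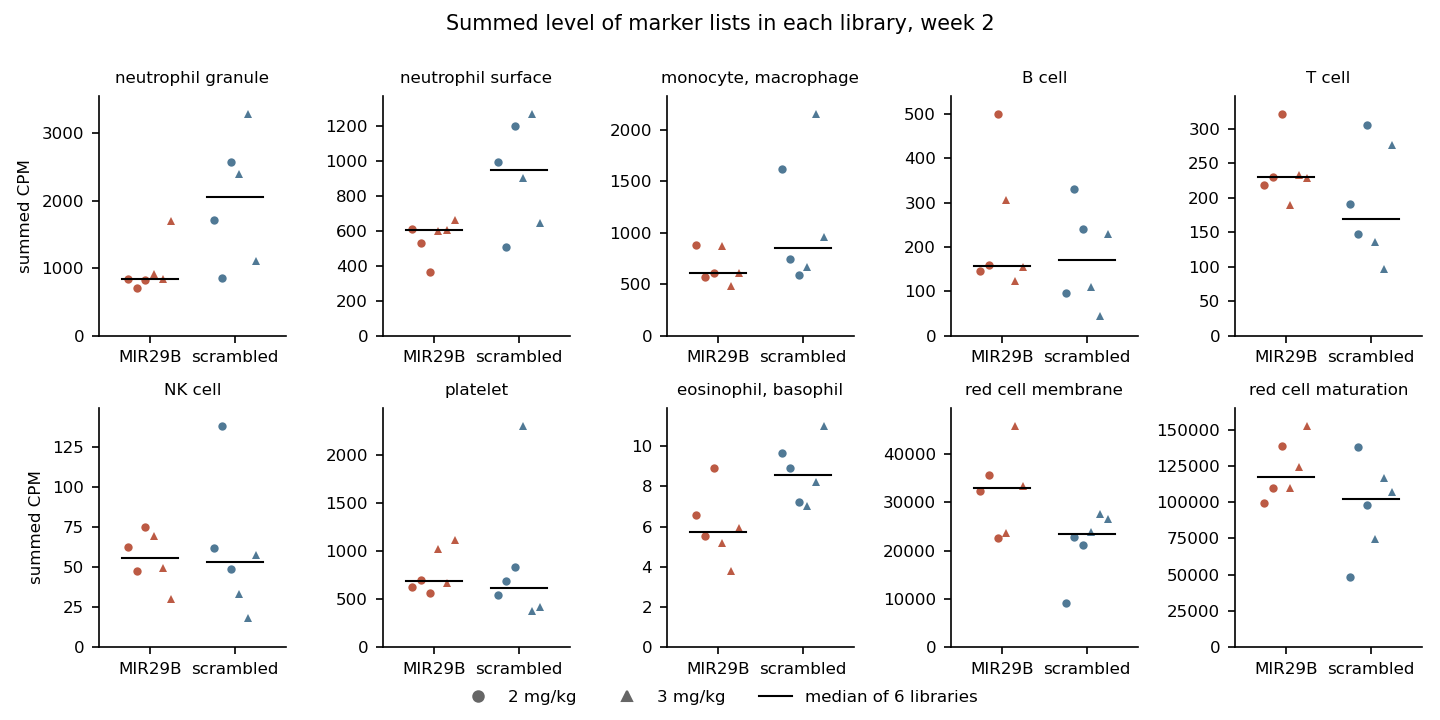
Summed TMM-scaled CPM of each marker or red cell list per library (each panel on its own linear axis from 0), MIR29B left of scrambled, doses as circles (2 mg/kg) and triangles (3 mg/kg), bars at the median of 6 libraries. The neutrophil granule sum has a median of 837 CPM with MIR29B and 2055 CPM with scrambled, and the red cell membrane sum a median of 32932 CPM with MIR29B and 23358 CPM with scrambled; the arms overlap in both.

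Lists of inflammation, interferon and housekeeping functions had medians of either sign, and some turned with single libraries. NF-kB targets and cytokines had 13 above 0 and 25 below of 38 with a median of -0.12, and the members with an unadjusted p under 0.05 were Il10, Osm, Ccl4 and Tlr4, all lower, beside 2.75% of all genes on that side. Ccl4, a chemokine, had 0.718, 2.51 and 5.27 CPM with MIR29B and 2.33, 5.11 and 11.8 CPM with scrambled (-1.37 ± 0.46). Nfkbia, the inhibitor of NF-kB and a quick readout of its activity, had 106, 129 and 157 CPM with MIR29B and 75.8, 149 and 213 CPM with scrambled (-0.14 ± 0.34). Interferon-stimulated genes had 24 above 0 and 15 below of 39 with a median of 0.18 (-0.25 with library totals alone). Relative to all genes that median lay 0.25 above with TMM scaling and 0.33 above with library totals alone. It was -0.13 at 2 mg/kg alone and 0.61 at 3 mg/kg alone, and 0.10 to 0.36 when single libraries were left out. Oas1e, a member of the oligoadenylate synthetase family with close copies in the genome, had 27.9, 47.8 and 58 CPM with MIR29B and 2.44, 17.9 and 39.3 CPM with scrambled (1.57 ± 0.52). Cell cycle genes had 20 above 0 and 12 below of 32 with a median of 0.14 (-0.19 with library totals alone), or 0.21 and 0.38 above all genes. Leaving out single libraries put this median between 0.04 and 0.42. Mcm2, a subunit of the replicative helicase, had 30.2, 44.8 and 75.4 CPM with MIR29B and 6.81, 17.8 and 36.7 CPM with scrambled (1.27 ± 0.40, adjusted p = 0.855).

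Proteasome subunits had 9 above 0 and 33 below of 42 with a median of -0.30, but the median was 0.34 without the 3 mg/kg scrambled replicate 1. Antioxidant genes, with a median of -0.21 over 29, turned to 0.63 without that same library, and ribosomal protein genes, with a median of -0.06 over 81, to 0.38. The sign of these 3 medians rested on that library. Psmf1, the proteasome inhibitor PI31, departed from its list with 291, 337 and 418 CPM with MIR29B and 45.7, 167 and 298 CPM with scrambled (1.19 ± 0.35, adjusted p = 0.846 in edgeR and 0.0426 in DESeq2). Epn1, the endocytic adaptor epsin 1, had 65.2, 98.4 and 128 CPM with MIR29B and 19, 43.2 and 108 CPM with scrambled (1.16 ± 0.34). Rnase4, a secreted ribonuclease, had 0, 0.165 and 0.787 CPM with MIR29B and 0.246, 0.637 and 3.06 CPM with scrambled (-3.02 ± 1.02). Cholesterol genes, of interest because the oligonucleotide carries cholesterol, had a median of -0.14 over 31 with 0 past adjustment.

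**Figure D5:**
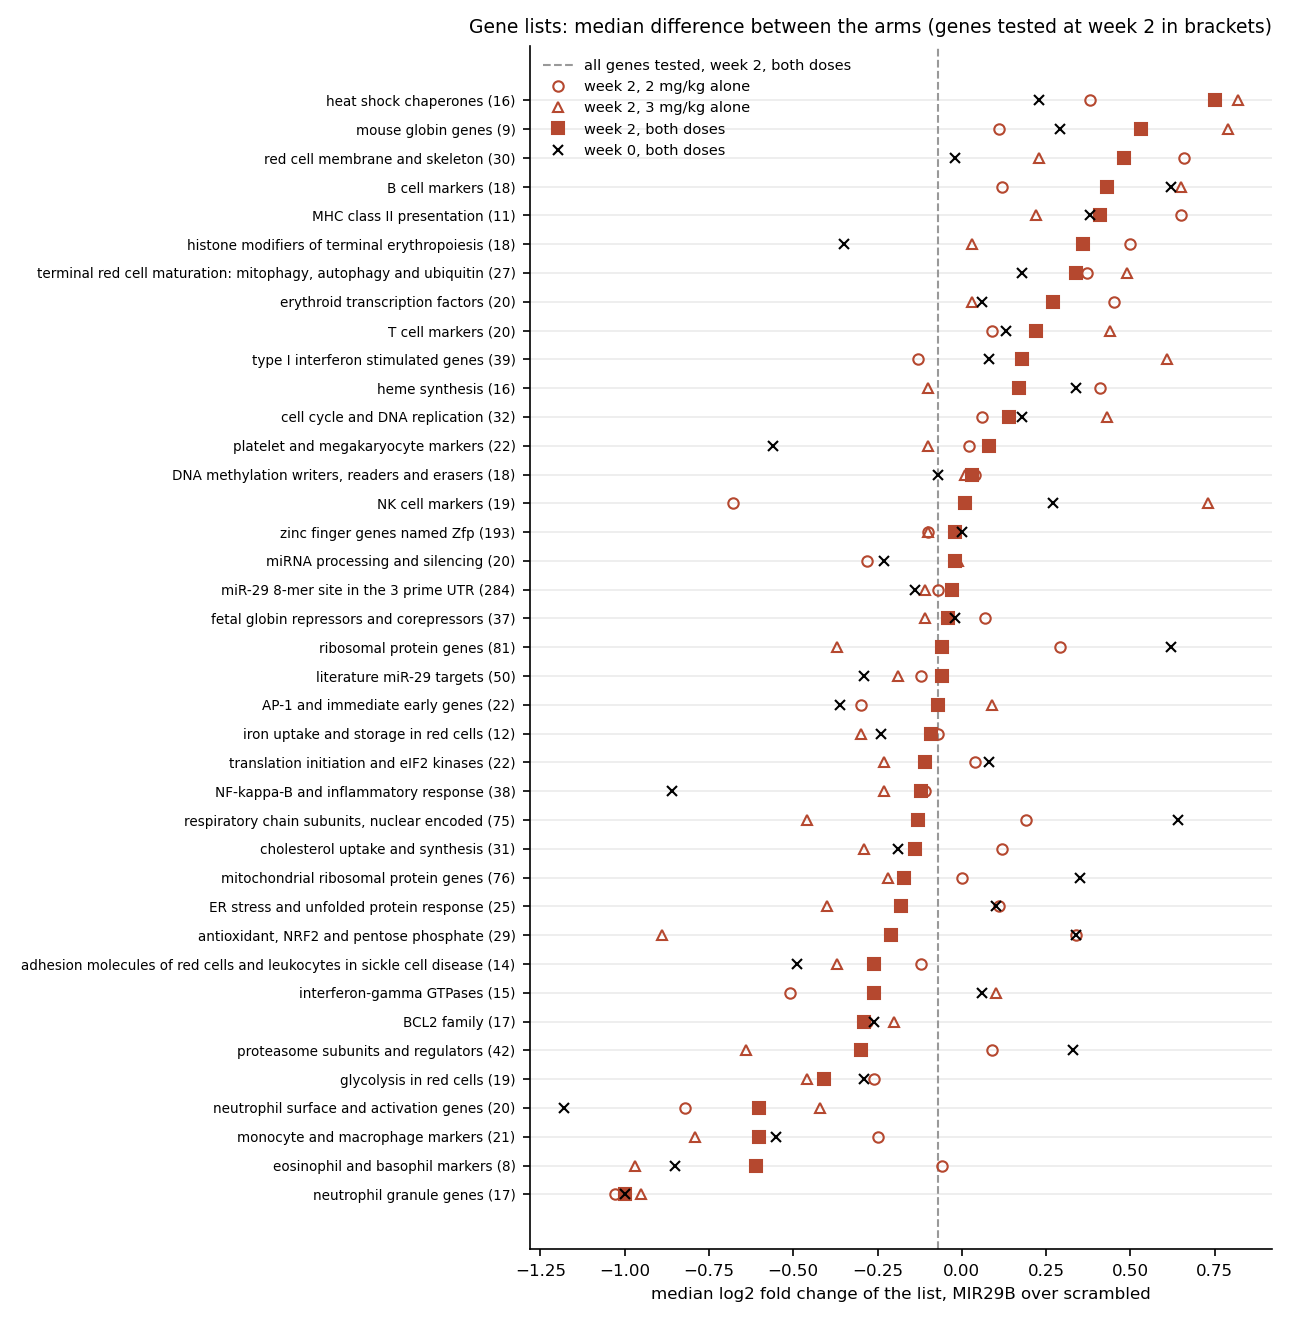
Median log2 fold change, MIR29B over scrambled, of each gene list at week 2 (squares), at either dose alone (open circles at 2 mg/kg, open triangles at 3 mg/kg) and at week 0 (crosses), with a dashed line at the median of all genes tested. The neutrophil granule list stands at -1.0 at both times, while the red cell membrane list stands at 0.48 at week 2 and at -0.02 at week 0.

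Whether the effect of MIR29B differed between doses was asked with the interaction of arm and dose. In edgeR, 0 of 10826 genes passed (0%), with 263 at an unadjusted p under 0.05, while DESeq2 called 1. The unadjusted count was 459 without the 2 mg/kg scrambled replicate 1, 465 without the 2 mg/kg scrambled replicate 3 and 397 without the 3 mg/kg scrambled replicate 1. Zfpm1 averaged 49.1 ± 14.1 CPM with MIR29B and 7.49 ± 5.04 CPM with scrambled at 2 mg/kg (SD, n = 3 each), and 41.0 ± 8.85 CPM with MIR29B and 36 ± 9.92 CPM with scrambled at 3 mg/kg, a difference of -2.53 ± 0.78 (SE) in log2 fold change. Kmt5a averaged 34.3 ± 13.8 CPM with MIR29B and 36.6 ± 6.73 CPM with scrambled at 2 mg/kg, and 46.5 ± 9.57 CPM with MIR29B and 14.7 ± 0.224 CPM with scrambled at 3 mg/kg, a difference of 1.76 ± 0.59. In both genes the MIR29B means at either dose were close and the scrambled means were apart. The difference for Erfe of -6.61 ± 1.71 came with 2 of 3 scrambled libraries at 0 at 2 mg/kg and with 12.7 CPM in the 3 mg/kg scrambled replicate 1. The adjusted p was 0.999 for each of these 3. For Cit the log2 fold change was 2.93 at 2 mg/kg, against 2.42 at 3 mg/kg. At 2 mg/kg the median was -1.03 for the neutrophil granule list and 0.66 for the red cell membrane list. At 3 mg/kg these medians were -0.95 and 0.23.

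The same labels were compared at week 0, which bears on which week 2 values were already there. The labels list dosing at weeks 0, 2 and 4 together with the times of blood collection, so whether week 0 blood was taken before the first dose is not established. At week 0, in a fit of all 36 libraries, the neutrophil granule genes had a median log2 fold change of -1.0, as at week 2, and the median of the difference between the weeks was -0.06. The neutrophil surface list stood at -1.18 at week 0 and the monocyte list at -0.55. The 10 genes of smallest p on the lower side were all below 0 at week 0, none past adjustment. They ran from -0.31 ± 0.31 for Pdcl3, -0.48 ± 0.62 for Cstdc4 and -0.91 ± 0.49 for Stfa2l1 to -1.55 ± 0.50 for Ifitm1, -1.80 ± 0.57 for Wfdc17 and -3.22 ± 1.0 for Igfbp6. The red cell lists varied at week 0: the median was -0.02 for membrane genes, 0.06 for erythroid transcription factors, 0.18 for terminal maturation, 0.29 for mouse globin genes and 0.34 for heme synthesis, the last above its week 2 value of 0.17. Of the 10 genes of smallest p on the higher side, all lay between -0.28 (Cit and Sptb) and 0.38 (Mavs) at week 0. Dnmt1 was at 0.03 ± 0.34.

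Whether the same mice were bled at several weeks is not in the labels. The model of the weeks took all 36 libraries as independent, so a pairing across weeks, if there is one, is not in its SE or p-values. The test of the difference between the weeks, in a model of all 36 libraries, found 0 of 11953 genes (0%) in edgeR, with 671 at an unadjusted p under 0.05 and 0 in DESeq2. That unadjusted count was 1105 without the week 2 2 mg/kg scrambled replicate 1 and 1075 without the week 0 2 mg/kg MIR29B replicate 1. The smallest p-values were those of Cit, with a difference in log2 fold change of 2.95 ± 0.69, then Mical3 at 2.49 ± 0.63, Atxn7l1 at 1.62 ± 0.42, Ube2o at 1.49 ± 0.39 and Psmf1 at 1.25 ± 0.33, all with an adjusted p of 0.838. In these 5 the difference between the arms was larger at week 2, and none passed. Cit averaged 5.21 ± 2.78 CPM with MIR29B and 6.5 ± 3.7 CPM with scrambled at week 0, 8.06 ± 4.23 CPM with MIR29B and 1.31 ± 0.701 CPM with scrambled at week 2, and 6.11 ± 2.82 CPM with MIR29B and 6.56 ± 5.84 CPM with scrambled at week 4 (SD, n = 6 each, scaled over all 36 libraries). Its scrambled libraries of week 2 thus had the lowest of the 6 means. For Dnmt1 the difference was 1.26 ± 0.48 (adjusted p = 0.859). The red cell membrane list had a median difference of 0.56, and other lists moved as far in either direction. The median difference was 0.81 for histone modifiers of terminal erythropoiesis, 0.74 for neutrophil surface genes and 0.54 for platelet markers. It was -0.67 for ribosomal protein genes and -0.63 for proteasome genes, beside -0.02 over all genes.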

How the data were processed

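Peripheral blood RNA was sequenced in 36 libraries, of which the 12 of week 2 were compared. The authors deposited raw counts for 25856 transcripts, and every count was even (0 odd values), as if each read pair counted as a pair of reads. Per the submitters' processing notes, HISAT2 2.0.5, featureCounts 1.5.0-p3 and GRCm38 were used, without their roles; strand setting and treatment of reads with several matches are not given in the sources used here. Symbols came from RefSeq for 25645 transcripts and from GENCODE for 137, with 74 left unnamed, and the transcript with the highest total stood for each of 16812 genes. Ribosomal RNA and unnamed entries held 2.431% to 21.79% of the counts per library; both stayed in the library sizes, and their removal was an alternative.

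In R 4.3.3, edgeR 4.0.16 fitted arm and dose with TMM scaling after filterByExpr (minimum count 10, minimum total 15). Its quasi-likelihood F test, two-sided and adjusted by Benjamini-Hochberg over all genes tested, called genes at an adjusted p under 0.05. SE is the fold change over the root of F, and 95% intervals use the t distribution of the fit. DESeq2 1.42.0 and limma 3.58.1 were alternatives, beside other scaling, no filter, halved counts, transcript sums, single doses, sex, ribosomal content and leaving out each library. The scripts were tested on simulated counts. Levels are TMM-scaled CPM and were not divided by length, so genes are not compared with each other. Counting depth limits genes below about 1 CPM.

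Named were the 10 genes of smallest p in each direction with an established symbol and a mean of at least 1 CPM, a fixed set of genes of interest, and genes with a miR-29 8-mer site. Members of the lists, the lists and the groups were chosen with earlier results of these data known. List members given as examples, and the genes called by DESeq2 outside this rule (Atxn7l1, Ube2o, Chil3), were named after their values were seen.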

Additional observations from a re-analysis of the deposited data

Results flagged for a closer look

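In 88 sets of 6 libraries (the named genes in each arm), 8 held a library whose distance to its nearest neighbour took up most of the range of the set; for normally distributed values chance marks about 1 in 20 such sets, and the rate for skewed CPM of chosen genes was not tested. In the MIR29B arm these were Stfa2l1 at 8.47 CPM and Ybx3 at 346 CPM, both in the 3 mg/kg replicate 3, with the other 5 at 3.19 to 4.78 CPM for Stfa2l1 and at 196 to 232 CPM for Ybx3. Il10 stood at 0.281 CPM in the 3 mg/kg replicate 1, with the others at 0 to 0.0921 CPM. Bcl11a stood at 4.45 CPM in the 2 mg/kg replicate 3, with the others at 0.859 to 1.98 CPM.

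In the scrambled arm, the 3 mg/kg replicate 1 held the highest Klf1, at 26.7 CPM with the others at 1.34 to 10.8 CPM, and the highest Erfe, at 12.7 CPM with the others at 0 to 1.4 CPM. Ufsp2 stood at 5.2 CPM in the 2 mg/kg replicate 3, with the others at 2.21 to 3.27 CPM. Tet2 stood at 7.14 CPM in the 2 mg/kg replicate 1, the library with the largest TMM factor, with the others at 0.335 to 2.58 CPM. Klf1, Erfe, Tet2 and Bcl11a are among the genes whose sign depended on the setting.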

How the results depend on the processing

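The count of 0 genes between the arms held under 12 fits that each left out 1 library (unadjusted counts 325 to 1023), under another size factor, halved counts, transcript sums, voom, either dose alone, no dose term, a term for sex, removal of ribosomal entries or of libraries rich in them, all 36 libraries, and library totals alone. It was 15 without the filter on low counts (Cit and Chil3 among them), 18 with DESeq2 and 1 (Cit, adjusted p = 0.0306) with a replicate block. What the replicate numbers mark is not stated, and they were not taken to pair the libraries. Same-numbered deviations correlated over 0.1 in 4 of 6 pairs (-0.195 to 0.395), which leaves pairing undecided. Of the MIR29B libraries, 4 of 6 were closest to their own number. The 2 mg/kg replicate 2 and the 3 mg/kg replicate 3 were closest to scrambled replicate 1 of their dose (0.273 and 0.298). Each had only 3 scrambled libraries to match, so some matches arise by chance, and no pairing is read from this count. Between doses 4 genes passed without the filter and 1 with DESeq2; between weeks 63 passed without the filter (19 higher, 44 lower). The causes were not tested. The 20 genes of smallest p kept their sign in all 539 values computed. They were chosen by small p in the main fit and the settings reuse most of the same libraries, so nothing is read from this. Of 1177 values for 44 named genes, 1107 kept sign and side of the threshold, 24 gained the threshold and 46 changed sign. Leaving out single libraries gave ranges of -0.60 to 0.14 for Dnmt3a, -0.63 to 0.40 for Dnmt3b, -0.70 to 0.36 for Tet2, -0.25 to 0.49 for Bcl11a, -0.36 to 0.11 for Zbtb7a, -0.20 to 1.51 for Myb, -0.22 to 0.61 for Klf1 and -0.28 to 0.08 for Nfkbia. At 2 mg/kg alone the log2 fold change was 0.19 for Dnmt3a, -0.04 for Bcl11a, 0.31 for Zbtb7a and -0.10 for Kmt5a, and at 3 mg/kg alone 0.54 for Tet2, -0.38 for Klf1 and -1.34 for Erfe. With library totals alone it was -0.36 for Dnmt3b, -0.31 for Tet3, -0.53 for Bcl11a and -0.23 for Klf1, and without libraries over 5% ribosomal RNA -0.32 for Dnmt3b, 0.20 for Tet2, -0.30 for Bcl11a and -0.36 for Klf1. With voom it was 0.11 for Dnmt3a and -0.25 for Dnmt3b, with transcript sums -0.04 for Dnmt3b and Klf1, with a replicate block -0.24 for Dnmt3b, and with sex as a term -0.08 for Bcl11a. With no dose term it was -0.13 for Klf1 and -0.61 for Erfe. Klf1 was also -0.04 with DESeq2 and with its size factors, -0.01 with halved counts and -0.05 without ribosomal entries. Of 1161 list medians under these settings, 24 moved by more than the spread between libraries. Precision was limited by a median SE of 0.46 log2 units over the genes tested, and for Dnmt3b, Tet1 and Il10 by counts.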

Other observations

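Some lists not described above also lay to 1 side. Glycolysis genes had 3 above 0 and 16 below of 19 with a median of -0.41, which lay 0.35 below all genes and 0.38 below with library totals alone, and 0 passed. Their summed level lay the other way, at 42645, 47406 and 56679 CPM with MIR29B and 18448, 35263 and 55049 CPM with scrambled, with overlap. At an unadjusted p under 0.05 in edgeR, 1 member was higher and 0 were lower. Gapdh was among the members above 0, with 559, 1031 and 1114 CPM with MIR29B and 238, 611 and 957 CPM with scrambled (log2 fold change 0.80 ± 0.37). Ldha, the lactate dehydrogenase subunit of most tissues, had 31, 47.7 and 59.3 CPM with MIR29B and 46.7, 66.3 and 74.2 CPM with scrambled (-0.43 ± 0.29). Histone modifiers of terminal erythropoiesis had 15 above 0 and 3 below of 18, with a median of 0.36 (-0.18 with library totals alone) that lay 0.43 and 0.40 above all genes. At week 0 the same list had a median of -0.35.

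Of 17 genes of the BCL2 family, which set the threshold for cell death, the median was -0.29 and 0 passed. Bcl2l13, a mitochondrial member linked to mitophagy, had 8.4, 15.9 and 18 CPM with MIR29B and 5.08, 8.69 and 11.9 CPM with scrambled (0.84 ± 0.28, adjusted p = 0.951). Bad, a pro-apoptotic member, had 0.46, 1.68 and 2.8 CPM with MIR29B and 1.43, 3.77 and 6.02 CPM with scrambled (-1.20 ± 0.48). Major histocompatibility class II genes had 10 above 0 and 1 below of 11 with a median of 0.41, which was -0.01 with library totals alone and 0.01 without the 2 mg/kg MIR29B replicate 3. Interferon-gamma induced GTPases had a median of -0.26 over 15 genes.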
